A study of Mus musculus with 10 samples.

Results

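The heat shock response genes described here are 10 genes chosen by name, *Hsf1*, *Hspa1a*, *Hspa1b*, *Hspa8*, *Hsph1*, *Dnajb1*, *Hsp90aa1*, *Hspb1*, *Hspd1* and *Hspe1*, out of 20206 genes in the table. They comprise the transcription factor of the response and the chaperones it controls, and serve as a check on whether the cultures differed in recent heat or handling stress. Each symbol matched 1 row, and all 10 genes passed the filter of a mean value of at least 10, as did 14354 genes in all. RNA was sequenced from 10 wild-type mouse embryonic stem cell (ESC) lines of the C57Bl/6 strain, all labelled as male. The 5 LPD lines (numbers 1, 4, 6, 20 and 40) came from blastocysts of mothers on a low protein diet with 9% casein, and the 5 NPD lines (8, 15, 21, 36 and 51) from mothers on a normal protein diet with 18% casein. The mothers were 7 to 9 weeks old and ate the diet from the day after mating up to E3.5, so the cells themselves shared 1 culture medium. Each line grew out of 1 blastocyst on fibroblast feeders, no mother gave more than 1 line, and RNA was taken after culture without feeders. Each line stems from 1 embryo and is 1 library, so the spread between lines holds differences between embryos as well as between cultures.

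Heat shock proteins are molecular chaperones, which bind unfolded proteins and help them fold or refold. HSF1 is the transcription factor that is held inactive in unstressed cells, forms trimers when unfolded proteins accumulate, and binds heat shock elements in the promoters of chaperone genes. Inducible Hsp70 (*Hspa1a*, *Hspa1b*) is the classic readout of that switch, whereas *Hspa8* is the constitutive Hsp70 of the same compartment. Mouse ESCs are known for high constitutive chaperone levels.

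The promoters are shown first, since they are what HSF1 would read. The mouse RefSeq promoter table (GRCm38.p6) had entries for 7 of the 10 genes and none for *Hsf1*, *Hspa8* and *Hsp90aa1*. A heat shock element was searched as alternating units of GAA and TTC spaced by 2 bases (a pair of units being GAA, any 2 bases and TTC, or TTC, any 2 bases and GAA) in the 250 bases before each start, on both strands. A pair of units was present in 12.8% of all 32851 promoters and 3 units in 0.466%, while the CCAAT box (CCAAT or ATTGG) was present in 33.8% and TATAAA in 12.4%. The *Hspa1a* promoter (chr17:34972157-34972406, minus strand) is given because *Hspa1a* is the inducible Hsp70. The *Hspb1* promoter (chr5:135887669-135887918, plus strand) is given because it holds 2 elements in a gene with high values. A stretch of 30 bases between the head-to-head genes *Hspd1* and *Hspe1* (chr1:55088053-55088082, plus strand) holds the only element of 3 or more units among the 7 genes, and a stretch of 30 bases around the *Hsph1* element (chr5:149636351-149636380, minus strand) completes the set. Capitals mark heat shock elements and, in *Hspa1a*, also the CCAAT box, and every sequence runs 5′ to 3′.
Hspa1a: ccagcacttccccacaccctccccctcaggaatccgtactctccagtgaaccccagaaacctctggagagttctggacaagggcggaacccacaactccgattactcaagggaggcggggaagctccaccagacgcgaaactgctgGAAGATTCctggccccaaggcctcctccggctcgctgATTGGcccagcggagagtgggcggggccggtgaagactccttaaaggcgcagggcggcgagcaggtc
Hspb1: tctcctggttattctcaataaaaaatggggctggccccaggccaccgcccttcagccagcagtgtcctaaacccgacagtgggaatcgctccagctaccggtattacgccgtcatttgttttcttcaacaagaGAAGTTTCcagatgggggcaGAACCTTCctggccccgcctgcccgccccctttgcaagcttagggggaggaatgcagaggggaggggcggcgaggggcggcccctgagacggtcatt
Hspd1-Hspe1: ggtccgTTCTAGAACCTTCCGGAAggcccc
Hsph1: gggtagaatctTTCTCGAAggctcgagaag

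The *Hspa1b* promoter (chr17:34959239-34959488, minus strand) was identical to that of *Hspa1a* at 247 of 250 positions, and in both a pair of units lay 104 bases before the start. In *Hspb1* the pairs of units lay 97 and 117 bases before the start. Between *Hspd1* and *Hspe1* the element held 4 units over 18 bases, 35 bases from the start of the longest *Hspd1* transcript and 56 bases from that of *Hspe1*, which lie 107 bases apart. The *Hsph1* pair of units lay 33 bases before the upstream of its 2 listed starts, beside 2 CCAAT boxes. No element by this definition lay in the windows before the starts of *Dnajb1*. Matches are letters in a window and not measured binding sites.

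Before the values, some facts on the libraries bear on them. The deposited values are estimated counts after normalization, and whole reads could not be recovered from them. They totalled 16398672 to 18324979 per line. A single read was worth 0.729 to 0.847 in 7 lines, but 1.39, 2.88 and 1.58 in LPD lines 6, 4 and 40, whose depth was correspondingly lower (5845641 read equivalents in LPD line 4 against 20408455 to 24111814 in the 7 deeper lines). The labels give all lines as male, but the Y-linked gene *Ddx3y* had a value of 7.70 in NPD line 15 and 174 in LPD line 4, against 1110 to 1493 in the other 8. X-linked genes of NPD line 15 had a median 0.49 above that of all lines on the log2 scale. Results are therefore also given without these 2 lines. The defining ESC markers were high in every line, *Pou5f1* (18250 to 30420), *Nanog* (5141 to 11571) and *Sox2* (7481 to 10969). Fibroblast markers, 12 of 14 with a mean of at least 10, summed to 961 to 3894 in LPD and 807 to 6627 in NPD lines, highest in NPD line 15, with *Col1a1*, *Col1a2* and *Col3a1* reaching 2709, 1442 and 859. The 9 primitive endoderm markers summed to 3501 to 21789 in LPD and 2235 to 16137 in NPD lines, with *Gata4*, *Gata6* and *Sox17* between 11.6 and 1079. The 10 trophectoderm markers summed to 3907 to 12293 in LPD and 3700 to 7231 in NPD lines, with *Cdx2*, *Elf5* and *Gata3* between 0.726 and 265. None of these 12 defining markers was at 0 in all lines, and the part of other cell types in the chaperone values was not tested. In bulk RNA, fewer cells of a type and less RNA per cell cannot be told apart.

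No difference between LPD and NPD lines was detected in any of the 10 heat shock response genes. At an unadjusted p under 0.05, 0 of 10 passed, against 5.02% of all genes tested (2.84% higher and 2.18% lower in LPD). No gene of the 14354 passed an adjusted p under 0.1 (limma, with 721 at an unadjusted p under 0.05). The exact Mann-Whitney test also gave 0, but with 5 lines against 5 its p cannot fall under 0.00794. A gene at that smallest p (*Dnajb12*, of the wider lists below) had an adjusted p of 0.78 by that test. That 0 is therefore no separate support. For 0 of 10 members did the diets fail to overlap, against 1.02% of all genes tested. Their median log2 fold change was -0.02, beside 0.0020 over all genes tested, with 4 higher and 6 lower in LPD. Without LPD line 4 and NPD line 15 the median was -0.0053, and again 0 members passed. Adjusted p (limma, Benjamini-Hochberg) lay between 0.994 and 0.997. The 95% confidence intervals nevertheless reach further for some genes than for others, and are given with each.

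**Figure D1:**
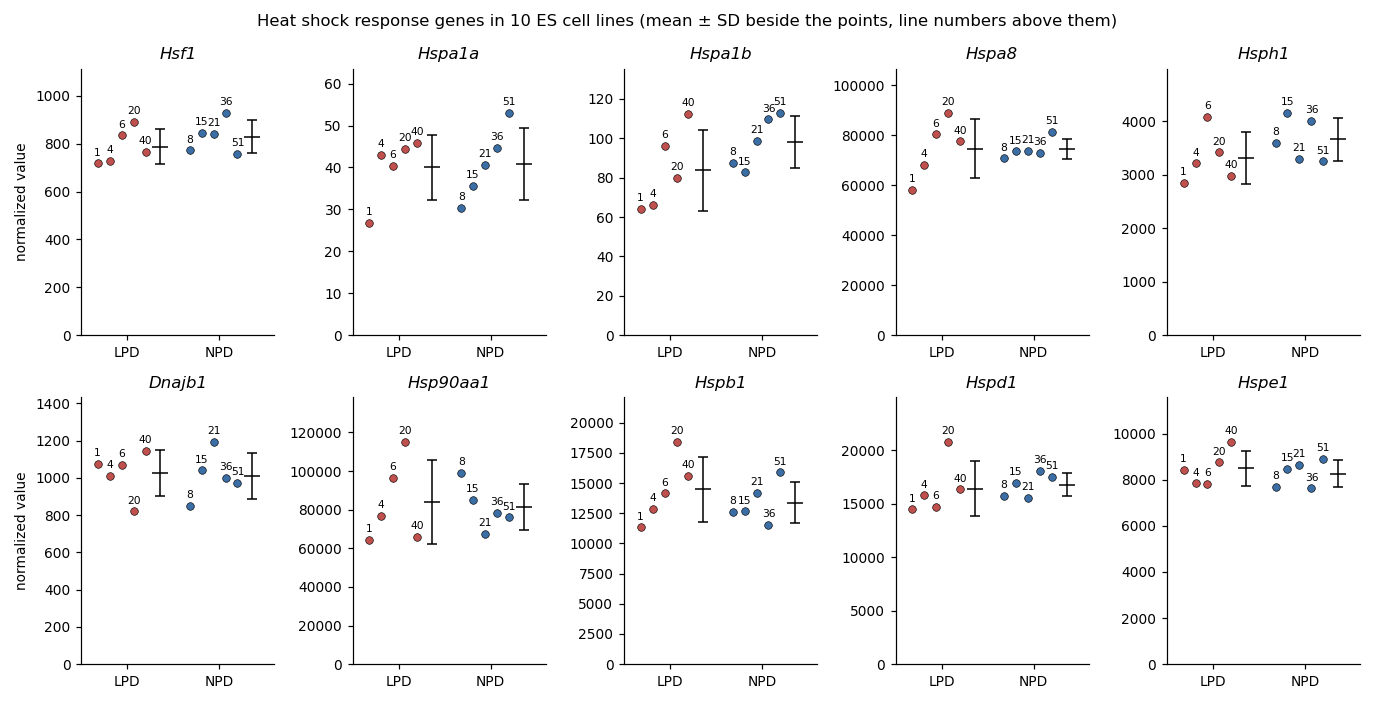
Normalized value of each heat shock response gene (vertical axes, linear from 0) in the 5 LPD lines (red) and the 5 NPD lines (blue), each point 1 line with its number, and the mean ± SD beside the points. The diets overlap in every panel, and LPD line 1 is the lowest point in 8 of them.

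*Hsf1* (ENSMUSG00000022556, chromosome 15, 76477422 to 76501913), the master regulator of the response, was expressed at a moderate and even level. Its normalized value was 718, 728, 835, 892 and 766 in LPD lines 1, 4, 6, 20 and 40, and 772, 846, 842, 928 and 759 in NPD lines 8, 15, 21, 36 and 51. The lowest values were in LPD lines 1 and 4, below every NPD line, and the highest in NPD line 36. The LPD mean was 788 ± 74.2 and the NPD mean 829 ± 67.8 (SD, n = 5 each), a log2 fold change of -0.07 (standard error 0.096, 95% interval -0.28 to 0.13, exact permutation p = 0.333). HSF1 is controlled mostly at the protein level, which these data do not measure.

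Inducible Hsp70 was near the bottom of the set. *Hspa1a* (ENSMUSG00000091971, chromosome 17, 34969190 to 34972156) had values of 26.7, 43.1, 40.4, 44.4 and 45.9 in LPD lines 1, 4, 6, 20 and 40, and 30.4, 35.7, 40.7, 44.7 and 53.0 in NPD lines 8, 15, 21, 36 and 51. LPD line 1 was the lowest and NPD line 51 the highest, with the rest interleaved. *Hspa1b* (ENSMUSG00000090877, chromosome 17, 34956436 to 34959238) had 64.2, 66.1, 96.0, 79.7 and 112 in the same LPD lines, and 87.4, 82.7, 98.8, 109.6 and 113 in the NPD lines. LPD lines 1, 4 and 20 lay below every NPD line, while LPD line 40 lay beside the highest NPD line.

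The difference in *Hspa1a* was -0.03 on the log2 scale (standard error 0.25, 95% interval -0.57 to 0.51, exact permutation p = 0.889), with means of 40.1 ± 7.73 for LPD and 40.9 ± 8.62 for NPD (SD, n = 5 each). The difference in *Hspa1b*, the largest in size among the 10 genes, was -0.25 (standard error 0.20, 95% interval -0.69 to 0.19, exact permutation p = 0.175), with means of 83.7 ± 20.5 and 98.3 ± 13.2 (SD, n = 5 each). These intervals admit a level 0.676 to 1.42 times that of NPD for *Hspa1a* and 0.62 to 1.14 times for *Hspa1b*. The low values rest on few reads, from 15 to 62.6 read equivalents for *Hspa1a* and from 22.9 to 150.0 for *Hspa1b* over the lines, lowest in LPD line 4 for both. The intronless genes also share much of their sequence, since 63.8% of the 31-base words of *Hspa1a* recur in *Hspa1b* and 67.6% of those of *Hspa1b* in *Hspa1a*, so the split of reads between them is an estimate. Their sum, taken after the values were seen, was 124 ± 25.7 in LPD and 139 ± 21.4 in NPD lines (SD, n = 5 each, log2 difference of log2(value + 1) -0.18, exact permutation p = 0.333).

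*Hspa8* (ENSMUSG00000015656, chromosome 9, 40800984 to 40810087), the constitutive Hsp70 that folds new proteins and uncoats clathrin vesicles, ranked 6 by mean value among all 20206 genes. It had 58246, 68105, 80290, 88823 and 77503 in LPD lines 1, 4, 6, 20 and 40, and 70775, 73525, 73787, 72837 and 81236 in NPD lines 8, 15, 21, 36 and 51. The LPD lines spanned a wider range than the NPD lines and enclosed it on both sides. The means were close, 74593 ± 11755 and 74432 ± 3983 (SD, n = 5 each), with a log2 fold change of -0.01 (standard error 0.12, 95% interval -0.27 to 0.25, exact permutation p = 0.944). Per kilobase of transcript, *Hspa8* exceeded the sum of *Hspa1a* and *Hspa1b* by 688 ± 95.1 times (SD over 10 lines, 562 to 855), so that inducible Hsp70 made up 0.148% ± 0.021 of the 3 genes together (0.117% to 0.178%). That share was 0.139% ± 0.020 in LPD and 0.156% ± 0.019 in NPD lines (SD, n = 5 each, exact permutation p = 0.198). It was lowest in LPD line 20 and highest in NPD line 36. Of the 31-base words of *Hspa8*, 77.2% recur in other genes, most of all in the annotated gene *Gm15459*, whose mean value was 45.7.

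No difference was detected in the partners of Hsp70 in refolding either. *Hsph1* (ENSMUSG00000029657, chromosome 5, 149614287 to 149636376) encodes Hsp110, which exchanges the nucleotide of Hsp70. Its values were 2844, 3216, 4083, 3421 and 2982 in LPD lines 1, 4, 6, 20 and 40, and 3592, 4153, 3298, 4008 and 3253 in NPD lines 8, 15, 21, 36 and 51. LPD lines 1, 4 and 40 lay below every NPD line, and LPD line 6 lay near the top of the NPD range. The means were 3309 ± 486 and 3661 ± 408 (SD, n = 5 each), a log2 fold change of -0.15 (standard error 0.11, 95% interval -0.39 to 0.09, exact permutation p = 0.230). Without LPD line 6 the log2 fold change was -0.23 at an unadjusted p of 0.0413 (limma, adjusted p = 0.917), the single case of a member under 0.05 in any of 22 alternative settings.

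*Dnajb1* (ENSMUSG00000005483, chromosome 8, 83608193 to 83612653), the Hsp40 that delivers substrates to Hsp70, had 1077, 1011, 1071, 821 and 1146 in LPD lines 1, 4, 6, 20 and 40, and 850, 1040, 1193, 1001 and 973 in NPD lines 8, 15, 21, 36 and 51. LPD line 20 was the lowest and NPD line 21 the highest, and 4 of the LPD lines fell inside the NPD range. The means were 1025 ± 124 and 1011 ± 124 (SD, n = 5 each), a log2 fold change of 0.02 (standard error 0.11, 95% interval -0.23 to 0.27, exact permutation p = 0.865). Neither *Hsph1* nor *Dnajb1* shares more than 0.441% of its 31-base words with another gene, so these values of HSF1-inducible genes are the least open to misassigned reads.

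*Hsp90aa1* (ENSMUSG00000021270, chromosome 12, 110690605 to 110702728), the inducible form of the Hsp90 that matures kinases and steroid receptors, ranked 5 by mean value. It had 64510, 76923, 96654, 115081 and 65967 in LPD lines 1, 4, 6, 20 and 40, and 99079, 85183, 67482, 78384 and 75979 in NPD lines 8, 15, 21, 36 and 51. LPD line 20 stood highest at 1.78 times LPD line 1, and both extremes belonged to the same diet. The means were 83827 ± 21686 and 81221 ± 11820 (SD, n = 5 each), a log2 fold change of 0.02 (standard error 0.17, 95% interval -0.35 to 0.39, exact permutation p = 0.960). Per kilobase, *Hsp90aa1* reached 0.611 ± 0.117 times the level of its constitutive partner *Hsp90ab1* (SD over 10 lines, 0.478 to 0.790), with 0.607 ± 0.119 in LPD and 0.614 ± 0.129 in NPD lines (n = 5 each, exact permutation p = 0.921).

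*Hspb1* (ENSMUSG00000004951, chromosome 5, 135887919 to 135889563), the small heat shock protein that holds unfolded proteins until Hsp70 can act, had 11341, 12866, 14168, 18415 and 15590 in LPD lines 1, 4, 6, 20 and 40, and 12640, 12660, 14176, 11555 and 15891 in NPD lines 8, 15, 21, 36 and 51. The highest and the lowest value were both in LPD lines, in lines 20 and 1. The means were 14476 ± 2705 and 13384 ± 1684 (SD, n = 5 each), a log2 fold change of 0.10 (standard error 0.13, 95% interval -0.18 to 0.38, exact permutation p = 0.548). Reads of both chaperones may be shared with annotated copies, since 62.9% of the 31-base words of *Hsp90aa1* recur in other genes (most in *Gm12346*, mean value 17.4) and 56.7% of those of *Hspb1* in *Hsp25-ps1* (mean value 9.58).

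The mitochondrial chaperonin is built from *Hspd1* (Hsp60, the folding chamber) and *Hspe1* (Hsp10, its lid), which lie head to head on chromosome 1 (ENSMUSG00000025980, 55077835 to 55088243, and ENSMUSG00000073676, 55088132 to 55091307) around the element of 4 units printed above. *Hspd1* had 14487, 15796, 14725, 20800 and 16368 in LPD lines 1, 4, 6, 20 and 40, and 15757, 16999, 15579, 18112 and 17527 in NPD lines 8, 15, 21, 36 and 51. LPD line 20 stood above every other line, and LPD lines 1 and 6 below every NPD line. *Hspe1* had 8416, 7838, 7828, 8749 and 9637 in the same LPD lines and 7681, 8463, 8633, 7628 and 8913 in the NPD lines. Its highest value was in LPD line 40 and its lowest in NPD line 36. The annotated genes overlap at their 5′ ends, and 55.8% of the 31-base words of *Hspd1* and 48.1% of those of *Hspe1* recur in other genes.

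The log2 fold change was -0.04 for *Hspd1* (standard error 0.10, 95% interval -0.27 to 0.19, exact permutation p = 0.714), with means of 16435 ± 2558 and 16795 ± 1103 (SD, n = 5 each). It was 0.04 for *Hspe1* (standard error 0.084, 95% interval -0.14 to 0.22, exact permutation p = 0.563), with means of 8494 ± 751 and 8264 ± 579 (SD, n = 5 each). Per kilobase, *Hspe1* exceeded *Hspd1* in 10 of 10 lines, by 1.59 ± 0.182 times (SD over 10 lines, 1.32 to 1.84), with the longest coding transcript as length. With the median coding length the order turned, at 10825 per kilobase for *Hspe1* and 19253 for *Hspd1*. The ratio was lowest in LPD line 20 and NPD line 36 and highest in LPD line 40, and did not differ between the diets beyond the spread (1.64 ± 0.216 and 1.55 ± 0.15, SD, n = 5 each, exact permutation p = 0.492).

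**Figure D2:**
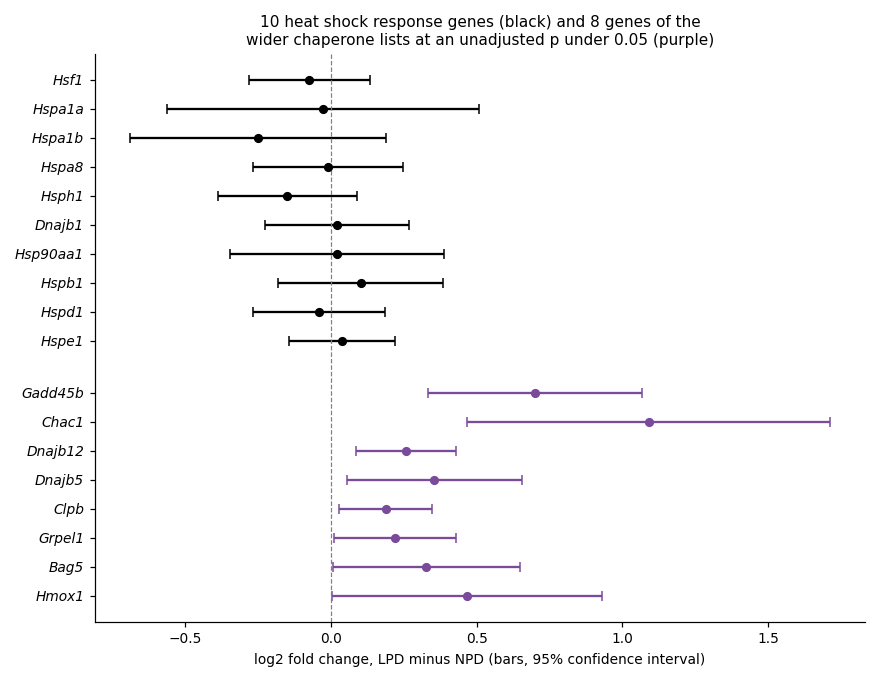
Log2 fold change of LPD against NPD lines (horizontal axis, points) with its 95% confidence interval (bars, limma, 5 lines a diet) for the 10 heat shock response genes (black) and for the 8 genes of wider chaperone lists at an unadjusted p under 0.05 (purple). All 10 black intervals include 0, the widest running from -0.57 to 0.51 for *Hspa1a*, whereas the purple genes were selected for their p.

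Levels can be compared between genes only per length, and were divided by the length of the longest coding transcript. On that scale the order of the mean level over 10 lines was *Hspa8* (31125 ± 3456 per kilobase, SD), *Hsp90aa1* (25152 ± 5036), *Hspb1* (14979 ± 2366), *Hspe1* (10825 ± 832), *Hspd1* (6857 ± 771), *Hsph1* (917 ± 121), *Hsf1* (384 ± 33.5), *Dnajb1* (340 ± 39.0), *Hspa1b* (32.5 ± 6.42) and *Hspa1a* (13.7 ± 2.61). The widest gaps between neighbours were 7.58 times (5.66 to 9.54 over the lines) between *Hspd1* and *Hsph1* and 10.8 times (8.07 to 15.7) between *Dnajb1* and *Hspa1b*. Most neighbours kept their order in 10 of 10 lines. The exceptions were *Hspa8* above *Hsp90aa1*, in 9 of 10 lines, and *Hsf1* above *Dnajb1*, in 8 of 10, so these neighbours are not separated beyond the spread between lines. With the median length of the coding transcripts instead, *Hsp90aa1* (116068 per kilobase) and *Hspd1* (19253) moved up, because short coding transcripts are annotated for both, and *Hspa8* (36906) and *Hsph1* (1141) moved less. *Hsp90aa1* then stood above *Hspa8*, and *Hspd1* above *Hspb1* (15208) and *Hspe1* (10825), so the order among these 5 depends on the length chosen. Together the 10 genes made up 1.18% ± 0.127 of the total value of a line (0.973% to 1.40% over the lines), with 1.17% ± 0.173 in LPD and 1.18% ± 0.077 in NPD lines (SD, n = 5 each, exact permutation p = 0.786).

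**Figure D3:**
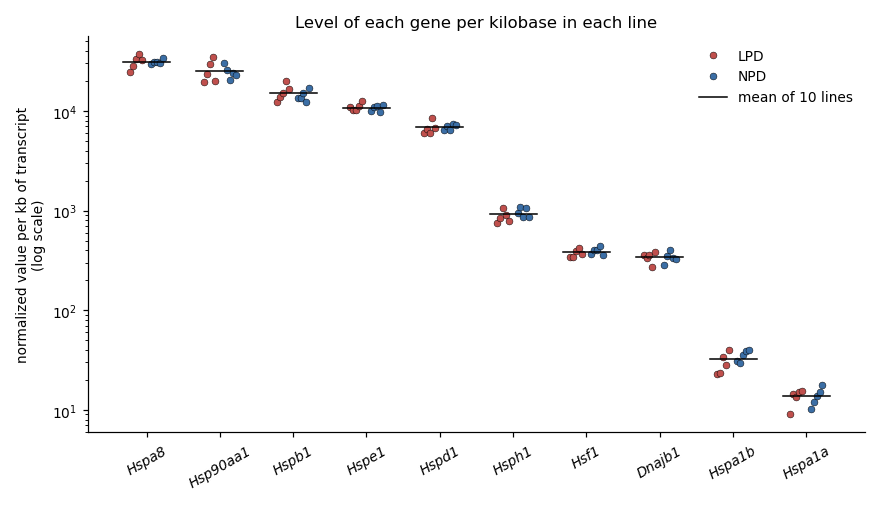
Normalized value per kilobase of transcript (vertical axis, log scale) of the 10 genes in each LPD (red) and NPD (blue) line, ordered by the mean of the 10 lines (horizontal bars). Levels fall from 31125 per kilobase for *Hspa8* to 13.7 for *Hspa1a*, and the diets overlap for every gene.

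The spread between lines differed among the members. The SD of the log2 values within diets was smallest for *Hspe1* (0.114) and *Hsf1* (0.125), smaller than in all but 6.14% and 8.95% of the genes tested. *Hspd1* (0.163), *Hspa8* (0.175), *Dnajb1* (0.181) and *Hsph1* (0.183) followed, with 20.8% to 27.5% of genes below them. *Hspb1* (0.226), *Hspa1b* (0.279), *Hsp90aa1* (0.294) and *Hspa1a* (0.304) varied most, with 40.4% to 56.5% of genes below them, which is near the middle of all genes. *Hsp90aa1* had at least 26700 read equivalents in every line, against 15 and 22.9 for *Hspa1a* and *Hspa1b* in LPD line 4, and the part of depth in their spread was not tested. The median over the 10 members was 0.182, beside 0.268 over all genes tested.

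The spread was not the same from line to line. LPD line 1 had the lowest value of all 10 lines in 8 of the 10 genes, *Dnajb1* and *Hspe1* being the exceptions, although it was lowest in 10.5% of all genes tested. Its mean deviation over the 10 genes was -0.25 on the log2 scale, from -0.56 in *Hspa1a* to 0.09 in *Dnajb1*. That count depends on the scaling, since with every line rescaled to the same total LPD line 1 was lowest in 4 genes (*Hspa1a*, *Hspa1b*, *Hspa8* and *Hspb1*), and with quantile normalization in these 4 and *Hsf1*, against 7.73% and 9.97% of all genes. LPD line 20 had the highest value in 4 genes (*Hspa8*, *Hsp90aa1*, *Hspb1* and *Hspd1*), the same 4 after rescaling, and was highest in 14.4% of all genes tested as deposited and 7.59% after rescaling. With quantile normalization it was highest in 2 (*Hsp90aa1* and *Hspb1*) and in 11.1% of all genes. The same line was the lowest for *Dnajb1* under all 3 scalings.

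**Figure D4:**
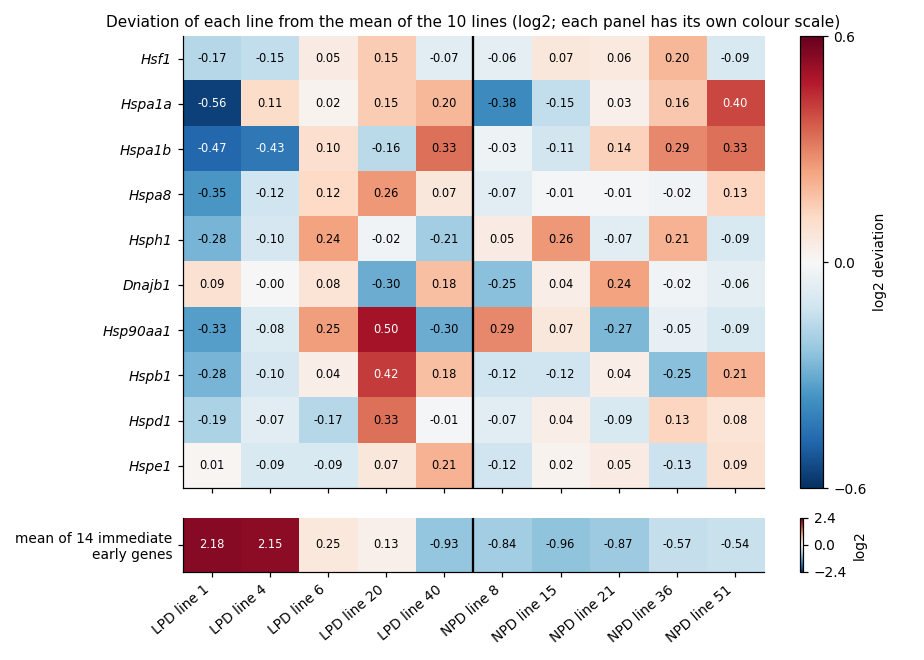
Log2 deviation of each line (columns) from the mean of the 10 lines for the 10 heat shock response genes (upper panel) and for the mean of 14 immediate early genes (lower panel, with a wider colour scale), red above and blue below the mean, with the vertical line between the diets. LPD line 1 is below the mean in 8 of the 10 genes, down to -0.56, and at 2.18 for the immediate early genes.

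Immediate early genes, which switch on within minutes of a stimulus such as fresh serum or disturbance of a culture, gave a contrasting picture in the same lines. At an unadjusted p under 0.05, 10 of 14 were higher in LPD and 0 lower (2.84% and 2.18% of all genes tested), with a median log2 fold change of 1.44. That count was 5 with read equivalents as a covariate or by the exact Mann-Whitney test, and 6 without LPD line 4 and NPD line 15. The list was taken up with an earlier result on such genes in these lines known. Their mean deviation was 2.18 and 2.15 in LPD lines 1 and 4, 0.25 and 0.13 in LPD lines 6 and 20, -0.93 in LPD line 40, and -0.96 to -0.54 in the NPD lines. The inducible chaperones *Hspa1a*, *Hspa1b*, *Dnajb1* and *Hsph1* averaged -0.30 and -0.11 in LPD lines 1 and 4, and between -0.15 and 0.16 in the other 8. The lines with the highest immediate early genes lay below the mean for the inducible chaperones. LPD line 20 (-0.08) and NPD line 8 (-0.15), with lower immediate early genes, did so too. In LPD line 4 the deviation was 0.11 in *Hspa1a*, -0.43 in *Hspa1b*, -0.00 in *Dnajb1* and -0.10 in *Hsph1*. A relation between the 2 sets of genes was not tested. Over the 4 genes the difference between the diets was -0.10 (exact permutation p = 0.333).

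The members did not move as 1 block over the lines. Of 6 relations computed, none passed at an adjusted p of 0.05 (Pearson and Spearman, permutation tests, Benjamini-Hochberg over 6, n = 10 lines). Each r is also given without the 2 lines farthest from the median of the first measure named. That pair of lines differs between relations, and these values are a check on single lines only. *Hspa1a* with *Hspa1b*, which share sequence, had r = 0.62 (permutation p = 0.0542, adjusted p = 0.267) and rho = 0.70 (permutation p = 0.0315, adjusted p = 0.0944), and r fell to 0.45 without LPD line 1 and NPD line 8. *Hsp90aa1* with *Hsph1* had r = 0.57 (permutation p = 0.0890, adjusted p = 0.267) and rho = 0.75 (permutation p = 0.0171, adjusted p = 0.0944), and r rose to 0.86 without LPD line 20 and NPD line 8 (permutation p = 0.00563, adjusted p = 0.0338). *Hspd1* with *Hspe1*, despite their shared promoter region, had r = 0.23 and rho = 0.25 (permutation p = 0.534 and 0.494, adjusted p = 0.580 and 0.494), and r = 0.46 without LPD line 20 and NPD line 36.

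*Hsph1* with *Dnajb1* had r = -0.20 and rho = -0.30 (permutation p = 0.580 and 0.408, adjusted p = 0.580 and 0.489), and -0.46 without LPD line 6 and NPD line 15. *Hsf1* with the mean of *Hspa1a*, *Hspa1b*, *Dnajb1* and *Hsph1* had r = 0.50 and rho = 0.41 (permutation p = 0.141 and 0.249, adjusted p = 0.281 and 0.373), which rested on LPD line 1 and NPD line 36, since r was 0.04 without them. *Hspb1* with the mean of the fibroblast markers had r = -0.31 and rho = -0.47 (permutation p = 0.383 and 0.180, adjusted p = 0.575 and 0.360), and -0.45 without LPD lines 1 and 20. Taken as deviations from the mean of each diet, the 6 values of r lay between -0.26 and 0.67, with the smallest adjusted p at 0.138.

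Among all pairs of members, given as a description over lines that differ in depth, r ran from -0.80 for *Dnajb1* with *Hsp90aa1* to 0.85 for *Hspa8* with *Hspb1*. The 3 genes outside the set whose log2 values were most like the mean standardized value of *Hspa1a*, *Hspa1b*, *Dnajb1* and *Hsph1* over the 10 lines were *Zfp276* (Pearson r = 0.95, values 143 to 273), *Foxn4* (r = 0.95, values 21.5 to 74.7) and *Stk11* (r = 0.93, values 1927 to 2294). They were picked as the nearest of all other genes tested, and over 10 lines some of so many genes reach a high r by chance. Whether these values exceed that was not tested.

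The wider chaperone network was read from 9 lists with 92 genes, of which 83 were tested. Among them, 8 were higher in LPD at an unadjusted p under 0.05 and 0 lower, or 9.64% of those tested against 5.02% of all genes (2.84% higher), and none passed adjustment. Without the list of other HSF1 targets the share was 5 of 74 (6.76%). With every line rescaled to the same total the counts were 5 higher and 2 lower. Of all genes under 0.05, 56.6% were higher as deposited and 40.2% after rescaling. The 5 higher after rescaling were *Gadd45b*, *Chac1* and *Hmox1* of the other HSF1 targets, and *Dnajb12* and *Dnajb5* of the J-domain co-chaperones. More higher than lower genes in the lists thus depended on the other HSF1 targets, and an excess among the chaperones after rescaling is not shown. With quantile normalization the counts of the lists were 6 higher and 2 lower, and 51.1% of all genes under 0.05 were higher. Without LPD line 4 and NPD line 15, 5 genes passed. No gene passed among heat shock factors and their regulators (0 of 5 tested), other Hsp70 and Hsp110 genes (0 of 9), the Hsp90 machine (0 of 14), small heat shock proteins (0 of 4) and the cytosolic chaperonin TRiC (0 of 8). Their medians were -0.04, 0.04, -0.03, 0.32 and 0.02.

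The J-domain co-chaperones held 2 of 18 and the mitochondrial chaperones 2 of 7, all higher in LPD, against 2.84% of all genes higher at that threshold. *Dnajb12*, a co-chaperone of the endoplasmic reticulum membrane, had 836, 826, 839, 906 and 853 in LPD lines 1, 4, 6, 20 and 40, and 708, 664, 764, 705 and 722 in NPD lines 8, 15, 21, 36 and 51. The 2 diets did not overlap, with the LPD lines all above the NPD lines, as in 1.02% of all genes tested in either direction. Its log2 fold change of 0.26 had a limma p = 0.00667 (standard error 0.080, adjusted p = 0.684, exact permutation p = 0.00794, the smallest that 5 lines against 5 allow), and it stayed under 0.05 unadjusted in 22 of 22 alternative settings.

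*Clpb*, which encodes a disaggregase of the mitochondrial intermembrane space, had 1456 to 1676 in LPD and 1328 to 1398 in NPD lines, again without overlap. Its log2 fold change was 0.19 (standard error 0.074, limma p = 0.0260, adjusted p = 0.952, exact permutation p = 0.00794), and the limma p was 0.0761 with every line rescaled to the same total. *Grpel1*, the nucleotide exchange factor of mitochondrial Hsp70, had a log2 fold change of 0.22 (limma p = 0.0415, adjusted p = 0.982, exact permutation p = 0.0556), and *Dnajb5*, an Hsp40 of the same class as *Dnajb1*, one of 0.35 (limma p = 0.0246, adjusted p = 0.952, exact permutation p = 0.0556). *Bag5*, a BAG family co-chaperone and the only one of 9 Hsp70 partners to pass, had 0.33 (limma p = 0.0453, adjusted p = 0.987, exact permutation p = 0.0714). In *Grpel1*, *Dnajb5* and *Bag5* the diets overlapped. An unadjusted p under 0.05 was kept in 17 of 22 alternative settings by *Clpb*, in 16 by *Dnajb5*, in 10 by *Grpel1* and in 7 by *Bag5*, whose log2 fold change was 0.21 when NPD line 15 was left out.

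**Figure D5:**
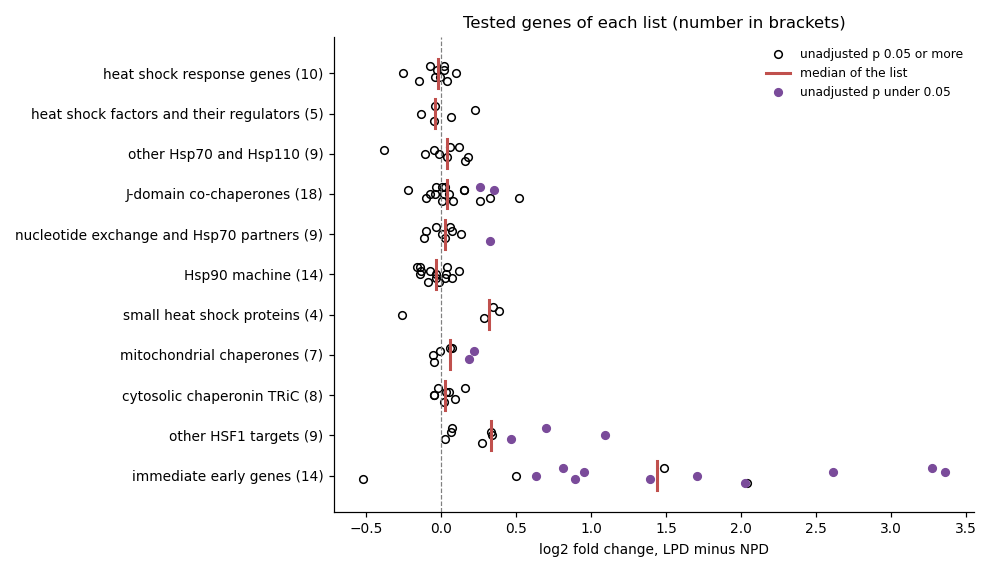
Log2 fold change of LPD against NPD lines (horizontal axis) of each tested gene (points) in the heat shock response genes, 9 wider lists and the immediate early genes, with filled points at an unadjusted p under 0.05 and the median of each list as a red bar. The 10 heat shock response genes gather around a median of -0.02, other HSF1 targets lie at 0.33 and immediate early genes at 1.44.

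The list of other HSF1 targets, most of them not chaperones but with the collagen chaperone *Serpinh1* (log2 fold change 0.34) among them, had a positive log2 fold change in 9 of 9 genes tested, as did 7247 of all 14354. The smallest, 0.023 in *Mrpl18*, was below the 0.034 by which rescaling to the same total moved the median of all genes. These counts are for the values as deposited. The median of the list was 0.33, and 3 of the 9 were higher at an unadjusted p under 0.05, against 2.84% of all genes. The list was chosen with earlier results of these data known, so this share is a description only, and HSF1 activity was not measured. *Gadd45b*, a stress sensor of the MAPK pathways, had 814, 1008, 1248, 1365 and 1051 in LPD lines 1, 4, 6, 20 and 40, and 577, 623, 876, 515 and 796 in NPD lines 8, 15, 21, 36 and 51. All LPD lines but line 1 lay above every NPD line. Its log2 fold change was 0.70 (standard error 0.17, limma p = 0.00124, adjusted p = 0.440, exact permutation p = 0.0159).

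*Chac1*, an enzyme that degrades glutathione and is also known as a target of ATF4, had 873, 923, 464, 521 and 312 in LPD lines 1, 4, 6, 20 and 40, and 372, 192, 335, 263 and 218 in the NPD lines. LPD lines 1 and 4 stood highest, and LPD line 40 lay within the NPD range. Its log2 fold change was 1.09 (standard error 0.29, limma p = 0.00233, adjusted p = 0.551, exact permutation p = 0.0238), and without LPD line 40 it was 1.31 at an adjusted p of 0.0943 (limma). It was 0.92 with LPD line 4 left out (limma adjusted p = 0.822) and 0.80 with both LPD line 4 and NPD line 15 left out (limma adjusted p = 0.998). *Hmox1*, the heme oxygenase of the oxidative stress response, had 1192 to 3288 in LPD and 1109 to 1382 in NPD lines, with a log2 fold change of 0.47 (limma p = 0.0486, adjusted p = 0.988, exact permutation p = 0.0397). Its log2 fold change was 0.23 when LPD line 20 was left out, and 9 of 22 alternative settings kept an unadjusted p under 0.05. These 3 genes have activators besides HSF1, and the cause of their higher values was not tested. The inducible chaperones *Hspa1a*, *Hspa1b*, *Dnajb1* and *Hsph1* had log2 fold changes of -0.03, -0.25, 0.02 and -0.15 beside them.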

How the data were processed

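RNA was sequenced from 5 LPD and 5 NPD ESC lines, each line taken as 1 replicate. According to the methods, the authors trimmed adaptors with cutadapt, filtered reads by quality, estimated transcript abundance with Salmon on GRCm38 transcripts and tested transcripts with sleuth (version 0.30.0 per the labels). The authors deposited 1 table of signal values, which are estimated counts per gene that, by the name of the table, DESeq2 had scaled. How transcripts were summed to genes is not given in the sources used here, and 0 columns were without a mapped line. Of 20206 genes, 19891 were matched to a symbol in GENCODE M21 (GRCm38).

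The value of 1 read was estimated in each line from low values of 4269 genes with 1 transcript, within a tolerance of 0.15. Since only 67.5% to 73.6% of low values over all genes were whole multiples of it, the values were not treated as counts of reads. Dividing the total of a line by its value of 1 read gave its depth in read equivalents.

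Values were transformed as log2(value + 1), and genes with a mean of at least 10 were compared with limma 3.58.1 in R 4.3.3 (mean-variance trend, two-sided, no covariate, Benjamini-Hochberg over all genes tested, thresholds of 0.1 adjusted and 0.05 unadjusted). Fold changes are on that scale, which understates changes of low genes. Single values were compared by two-sided exact permutation over the 252 assignments of 5 and 5 lines, and correlations with 100000 resamples. Further steps ran in Python 3.11.15 (pandas 2.3.3, numpy 2.4.6, matplotlib 3.10.9, scipy 1.17.1), and both tests were tried on data with known answers.

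The members and lists were chosen with earlier results of these data known. Named genes are the 10 members, genes of the wider lists at an unadjusted p under 0.05 (at most 12), the 3 genes most like the inducible chaperones, and the defining markers. Alternatives were other pseudocounts (0.1 and 10), filters and scalings, limma with array weights, with robust eBayes or without the trend, read equivalents as a covariate, the exact Mann-Whitney test, and lines left out. The sum of *Hspa1a* and *Hspa1b* was added after the data were seen. Length per kilobase and shared 31-base words come from GENCODE M21, and promoters from RefSeq (GRCm38.p6, 250 bases before each start).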

Additional observations from a re-analysis of the deposited data

Results flagged for a closer look

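In groups of 5 lines, a line was flagged where its gap to the nearest other line exceeded 0.71 of the range of its diet, and 3 of 36 groups were (chance alone flags about 1 in 20). *Hspa1a* in LPD line 1 had a value of 26.7, below the other LPD lines (40.4 to 45.9), with a ratio of 0.712. *Hspa8* in NPD line 51 had 81236, above the other NPD lines (70775 to 73787), also with a ratio of 0.712. *Hmox1* in LPD line 20 had 3288, above the other LPD lines (1192 to 1599), with a ratio of 0.806. Without LPD line 1 the log2 fold change of *Hspa1a* was 0.11, without NPD line 51 that of *Hspa8* was 0.02, and without LPD line 20 that of *Hmox1* was 0.23.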

How the results depend on the processing

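No member passed an adjusted p of 0.1 in any limma setting (smallest adjusted p 0.843). None passed by the exact Mann-Whitney test either, but its smallest possible p (0.00794) had an adjusted p of 0.78, so that test could not decide this. Leaving out 1 line gave 0 to 1 members at an unadjusted p under 0.05 (1 without LPD line 6), 4 to 9 genes of the wider lists (4 without NPD line 15 and 5 without LPD line 6 or NPD line 8, 21 or 36), and 0 to 40 genes at an adjusted p under 0.1, of which 40 were without LPD line 40. Genes of the wider lists numbered 5 by limma without a trend, by the exact Mann-Whitney test and without LPD line 4 and NPD line 15, and array weights gave 1 gene at an adjusted p under 0.1; the cause was not tested. Fold changes near 0 turned sign. Rescaling to the same total gave -0.015 for *Dnajb1* and -0.014 for *Hsp90aa1*, and quantile normalization -0.048 for *Hsp90aa1* and -0.0037 for *Hspe1*. Depth as a covariate gave 0.010 for *Hspa8*, -0.035 for *Dnajb1* and 0.021 for *Hspd1*, and *Hspa8* was at 0.015 without LPD line 4 and NPD line 15. With 1 line left out, the log2 fold change ran from -0.13 to 0.11 for *Hspa1a*, -0.077 to 0.075 for *Hspa8*, -0.041 to 0.10 for *Dnajb1*, -0.10 to 0.11 for *Hsp90aa1*, -0.13 to 0.00079 for *Hspd1* and -0.0086 to 0.066 for *Hspe1*. The signs of *Hsf1*, *Hspa1b*, *Hsph1* and *Hspb1* held in all 22 settings in which each was tested, except that *Hspa1b* was below the filter of a mean of at least 100. No paired analysis was possible because the diets share no line number. Scaling moved the median of all genes by at most 0.034. The depth of LPD line 4 limits *Hspa1a* and *Hspa1b* most.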
